A study of Mus musculus with 4 samples.

Results

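Aqp9, Aqp3, Dgat1, Dgat2 and Gpam, 5 genes of glycerol entry and triglyceride assembly, were followed in sorted mouse memory CD4 T cells with and without the kinases MEKK2 and MEKK3. They were chosen by name because Aqp9 had been seen to be lower in the mutant cells of these same arrays. The difference of every member between the genotypes is therefore a description here, and no test is given for it. All probes that the platform annotation names for them were taken, 7 of the 45281 probes on the array. The 7 probes cover 5 of the 19057 named genes, with a pair each for Aqp9 and Gpam.

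Cells with the surface phenotype CD4+CD62L-CD44+ were taken by flow sorting from spleen and lymph nodes, and their total RNA was labelled with biotin for Illumina bead arrays. The dKO group, 2 arrays, came from mice on the C57BL/6 background with a MEKK2 KO, the MEKK3F/- genotype (1 floxed allele over 1 null allele) and Lck-Cre, whose promoter is active in T cells. Cells outside that promoter's reach keep the floxed MEKK3 allele. The WT group, 2 arrays, came from C57BL/6 wild-type mice. The labels give no sex, no age, no agent and no number of animals for any array. Whether replicate arrays stem from different mice is not stated, so the p-values below reflect array-to-array spread alone, which may be technical.

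The study's title asks how MEKK2 and MEKK3 act in TGF-beta-driven helper T cell differentiation. MEKK2 and MEKK3 stand at the head of MAP kinase cascades. Aquaglyceroporins are membrane channels that let glycerol as well as water cross. Inside the cell, glycerol kinase turns glycerol into glycerol 3-phosphate, acyltransferases of the GPAT and AGPAT families add fatty acids, lipins remove the phosphate, and the DGAT enzymes add the last fatty acid to make triglyceride. In mouse memory CD8 T cells, interleukin 7 is known to induce Aqp9, and glycerol imported through it feeds triglyceride synthesis and long-term survival.

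An array intensity counted as measured when it exceeded a floor of 16, a value set for these data. Between 12763 and 13218 probes of an array did so, and each array had 45281 probes. A probe was kept when it exceeded the floor on at least 1 of the 4 arrays, which 14673 probes did. Whether the groups overlap at a probe is judged on its normalized log2 values, and for a summed marker list on the deposited intensities, and the number 2 arrays were brighter on average than the number 1 arrays (mean intensity 119 against 86.9). Of the 7 member probes 4 were kept, 1 each for Aqp9, Aqp3, Dgat1 and Dgat2. Intensities of different probes are not compared, because each probe has its own brightness. The arrays also differ in sex-linked transcripts. Xist, made from the inactive X chromosome, was at 3.0 and 1.1 in dKO 1 and 2 and at 327 and 536 in WT 1 and 2, and the Y-linked Eif2s3y was at 235 and 377 in dKO and at 4.0 and 1.6 in WT. Sex and genotype cannot be told apart in anything that follows.

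The targeted Map3k3, which encodes MEKK3, had an intensity of 204 in dKO 1 and 246 in dKO 2, against 311 in WT 1 and 387 in WT 2. Both probes of Map3k2, which encodes MEKK2, stayed below the floor on all 4 arrays. Where these probes lie relative to the deleted parts is not known here, so they do not check the labels. The T cell receptor genes Cd3d, Cd3e and Cd3g were at 2250.4 or above on every array. Cd4 was at 84 to 151 on its brighter probe, and the probe of the T cell surface gene Cd5 stayed below the floor.

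Aqp9 encodes aquaglyceroporin 9 and lies on chromosome 9 of the mouse genome (GRCm38.p6, RefSeq gene bounds chr9:71110659-71167849). Its brighter probe, ILMN_1214634, was at a deposited intensity of 37.7 in dKO 1 and 22.8 in dKO 2, against 246 in WT 1 and 154 in WT 2. Both dKO arrays lay far below both WT arrays, and the groups did not overlap. On each array the probe stood at the 79.9th and 74.3rd percentile of all probes in dKO 1 and 2 and at the 93.5th and 89.1st percentile in WT 1 and 2.

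The ratio of WT over dKO intensity at this Aqp9 probe was 6.52 in replicate number 1 and 6.75 in number 2. Arrays with the same replicate number, 1 of each genotype, had been normalized together, so these are the ratios within a shared normalization. They hold for the values as deposited, and another background subtraction, which the sources used here do not state, would give other ratios. After the floor and quantile normalization over the 4 arrays, the mean log2 intensity was 4.89 ± 0.66 (SD, n = 2) for dKO arrays and 7.62 ± 0.73 (SD, n = 2) for WT arrays. The log2 difference, dKO minus WT, was −2.73, or −2.78 within number 1 and −2.68 within number 2. These values chose the gene and are not tested. Among the 14673 kept probes it had the 5th lowest difference.

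Much of the spread of Aqp9 inside each genotype followed the replicate number. Number 2 lay below number 1 by a log2 difference of −0.98 over both genotypes, a level shift that the difference within a number does not contain. The other Aqp9 probe, ILMN_2443759, was at 4.5 and 3.0 in dKO 1 and 2 and at 2.0 and 1.9 in WT 1 and 2. All 4 values were below the floor, between the 10.7th and 31.3rd percentile of their arrays, so this probe gives no difference. The lower Aqp9 level in dKO thus rests on 1 of the gene's 2 probes. In sorted cells measured in bulk, fewer cells carrying the transcript and less transcript in each cell cannot be told apart.

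**Figure D1:**
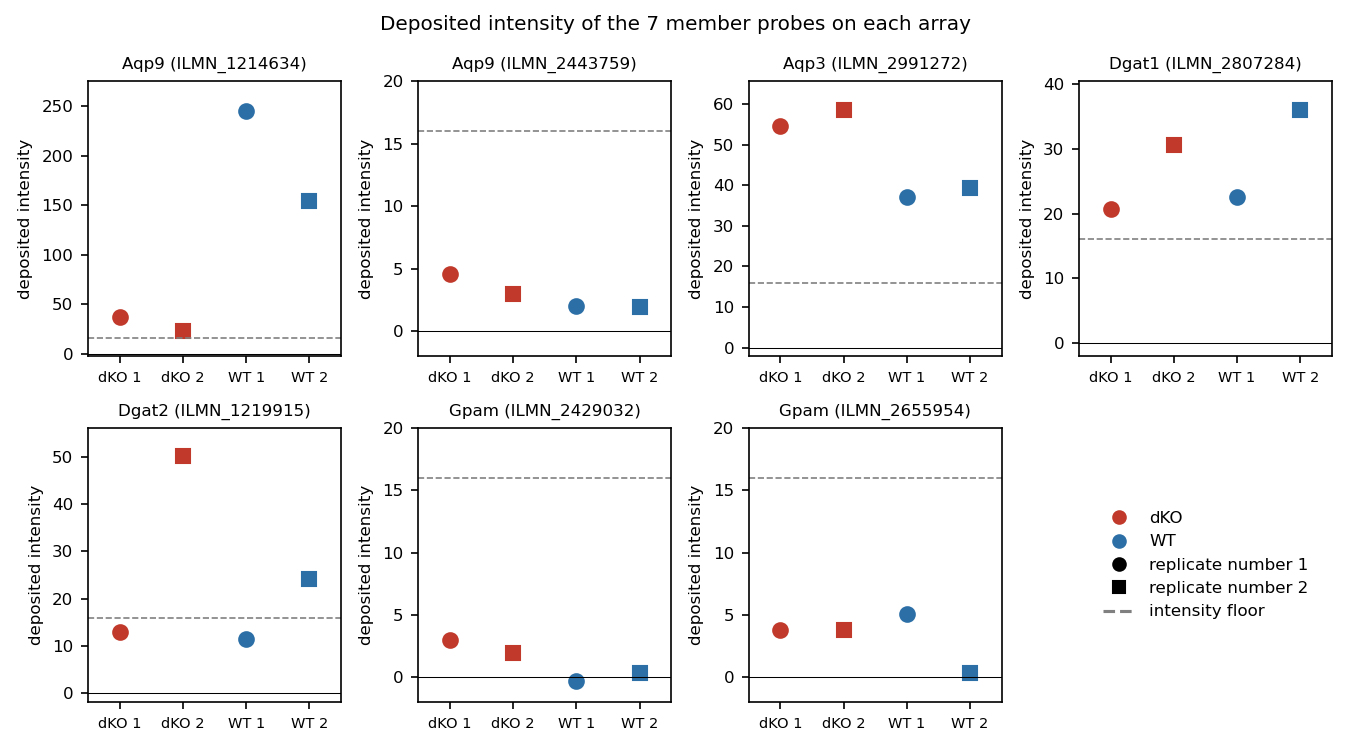
Deposited intensity (linear scale, y axis of each panel) of the 7 member probes on the 4 arrays (x axis), with dKO in red, WT in blue, circles for replicate number 1 and squares for number 2. The dashed line is the floor of 16. The Aqp9 probe ILMN_1214634 lies at 22.8 and 37.7 in dKO and at 154 and 246 in WT, while the other Aqp9 probe and both Gpam probes stay below the floor on every array.

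The RefSeq upstream windows used here include 2 for Aqp9 and 1 for Aqp3. They are shown because Aqp9 and Aqp3 are the 2 channel genes whose groups did not overlap. Each is the 250 bases before an annotated start, read 5′ to 3′ on the gene's strand (minus, GRCm38.p6). Which start the memory cells use was not measured. On this strand the gene bound of Aqp9 at 71167849 lies upstream of both of its windows, and no window was available there. Capitals mark the letters of any of 4 motifs searched on both strands. The AP-1 site TGANTCA is bound by factors downstream of MAP kinases, and the SMAD element CAGAC by factors of the TGF-beta pathway. The MEF2 site, bound by targets of ERK5, was searched as CTA, any 4 letters, then TAG. That is a simplified pattern, which need not match every MEF2 site and can match other letters. The last motif was the TATA box TATAAA. The motifs did not overlap in these 3 windows.
Aqp9 start 1, chr9:71163290-71163539: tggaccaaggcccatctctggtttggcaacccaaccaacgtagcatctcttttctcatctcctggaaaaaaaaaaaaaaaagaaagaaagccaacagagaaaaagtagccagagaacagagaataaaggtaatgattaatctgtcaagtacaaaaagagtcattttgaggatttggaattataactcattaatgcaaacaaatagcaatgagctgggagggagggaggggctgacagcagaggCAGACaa
Aqp9 start 2, chr9:71162634-71162883: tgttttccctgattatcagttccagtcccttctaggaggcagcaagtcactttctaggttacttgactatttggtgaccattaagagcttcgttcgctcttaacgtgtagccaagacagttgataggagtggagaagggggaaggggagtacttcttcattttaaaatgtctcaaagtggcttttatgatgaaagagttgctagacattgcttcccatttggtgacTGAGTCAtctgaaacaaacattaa
Aqp3, chr4:41098184-41098433: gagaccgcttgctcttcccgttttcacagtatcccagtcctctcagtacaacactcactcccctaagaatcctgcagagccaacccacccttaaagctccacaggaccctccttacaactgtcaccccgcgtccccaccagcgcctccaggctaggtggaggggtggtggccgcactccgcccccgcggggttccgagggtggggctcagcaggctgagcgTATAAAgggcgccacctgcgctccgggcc

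The window before the second Aqp9 start held 1 AP-1 match, TGAGTCA, at 24 to 18 bases before the start. Of all 32851 RefSeq windows of this length, 6.75% held the AP-1 letters. The window before the first Aqp9 start held 1 SMAD match, at 7 to 3 bases before the start, and 42.2% of all windows held those letters. The Aqp3 window held 1 TATA box at 29 to 24 bases before the start, as 12.4% of windows did anywhere in their 250 bases. The MEF2 letters, present in 3.20% of windows, were in none of the 3. The Aqp3 window was richer in G and C (64.0%) than either Aqp9 window (40.4% and 41.6%), against a median of 52.4% over all windows. A match describes letters and is not a bound site.

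Aqp3 encodes aquaglyceroporin 3, the other glycerol channel among the members, which also passes hydrogen peroxide and is known from T cell migration in mice (chr4:41092724-41098183). Its probe was at 54.5 in dKO 1 and 58.5 in dKO 2, against 37.0 in WT 1 and 39.2 in WT 2. Both dKO arrays were above both WT arrays, the opposite side from Aqp9, and the groups did not overlap. The ratio of dKO over WT intensity was 1.47 in replicate number 1 and 1.49 in number 2. Mean log2 intensity was 5.82 ± 0.12 (SD, n = 2) for dKO arrays and 5.25 ± 0.11 (SD, n = 2) for WT arrays. The difference was 0.57, with 0.58 within number 1 and 0.56 within number 2. The replicate numbers themselves differed little at this probe, by −0.16 on the log2 scale (number 2 minus number 1). In rank the Aqp3 difference was the 635th highest of the 14673 kept probes.

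Dgat1 and Dgat2 encode the 2 enzymes of the last step of triglyceride synthesis, which share the reaction but not their protein family. Dgat1 (chr15:76502012-76512021) was at 20.8 in dKO 1 and 30.6 in dKO 2, against 22.6 in WT 1 and 36.1 in WT 2. It was above the floor on all 4 arrays, and the groups overlapped, since dKO 2 was above WT 1. Mean log2 intensity was 4.65 ± 0.26 (SD, n = 2) for dKO arrays and 4.82 ± 0.34 (SD, n = 2) for WT arrays. The difference of −0.18 was smaller than either SD, at −0.12 within number 1 and −0.23 within number 2. The 2 replicate numbers differed more than the genotypes, by 0.42 on the log2 scale.

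Dgat2 (chr7:99153663-99182713) exceeded the floor only in replicate number 2. Its intensity was 13.0 in dKO 1 and 11.4 in WT 1, both below the floor, and 50.2 in dKO 2 and 24.1 in WT 2. Within number 2 the dKO over WT ratio was 2.08, and within number 1 no difference could be measured. Mean log2 intensity was 4.76 ± 1.08 (SD, n = 2) for dKO arrays and 4.25 ± 0.35 (SD, n = 2) for WT arrays, and the difference of 0.51 was smaller than the dKO spread. That difference rests on 1 array, since without dKO 2 it turned to −0.24. The groups overlapped, and number 2 exceeded number 1 by 1.01 on the log2 scale.

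Gpam encodes the mitochondrial glycerol 3-phosphate acyltransferase that starts glycerolipid synthesis (chr19:55067635-55127319). Neither of its probes was above the floor on any array. ILMN_2655954 was at 3.8 in dKO 1, 3.8 in dKO 2, 5.1 in WT 1 and 0.37 in WT 2. ILMN_2429032 was at 3.0 in dKO 1, 2.0 in dKO 2, −0.27 in WT 1 and 0.34 in WT 2. At these signals Gpam has no measured level in either genotype, and no ratio between them is given.

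Of the 4 kept member probes, 1 was lower in dKO without overlap (Aqp9), 1 was higher without overlap (Aqp3), and 2 overlapped (Dgat1 and Dgat2). Over all 14673 kept probes, 26.1% did not overlap, 14.2% lower in dKO and 11.9% higher. The rule that chose the members used this same contrast, so nothing is read from the count. The median difference of the 4 member probes was 0.17, beside 0.00 over all kept probes, with their quartiles at −0.19 and 0.18. Limma called 0 of the 14673 kept probes between the genotypes (0%) at an adjusted p under 0.05, with a smallest adjusted p of 0.184, and 480 (3.27%) had an unadjusted p under 0.05. With the replicate number as a block it called 34 (0.232%), 23 higher (0.157%) and 11 lower (0.075%).

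**Figure D2:**
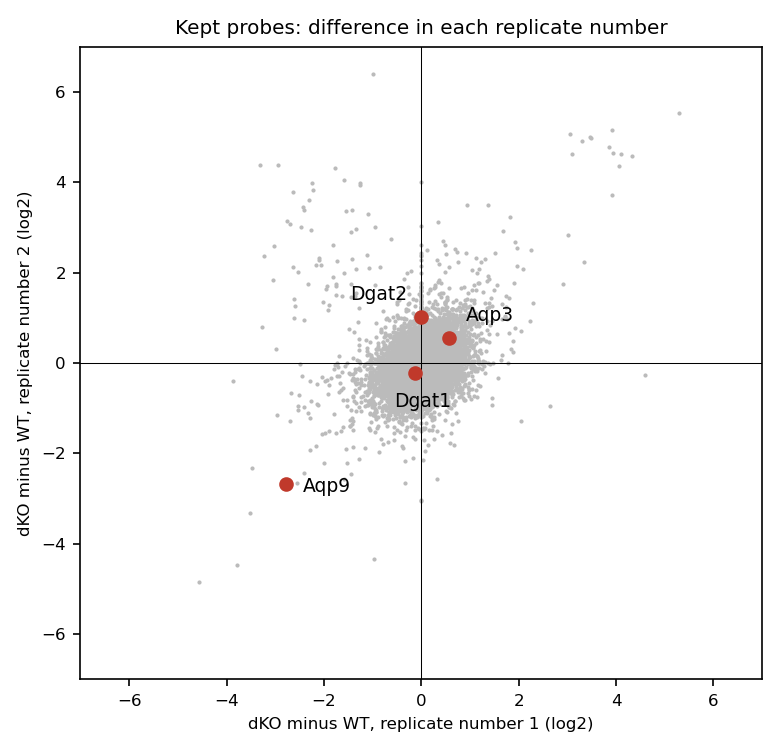
Difference in log2 intensity, dKO minus WT, within replicate number 1 (x axis) and within number 2 (y axis) for all 14673 kept probes (grey) and the 4 kept member probes (red). Aqp9 lies at −2.78 and −2.68 and Aqp3 at 0.58 and 0.56, while Dgat1 lies at −0.12 and −0.23 and Dgat2 at 0 in number 1, where it was at the floor, and 1.02 in number 2.

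The pathway around the members was described with 10 gene lists of 105 genes, of which 101 had a named probe and 52 a kept one, each gene taken at its kept probe of highest mean. Limma called 0 of the 52 genes, against 0% of all 8285 kept genes, and their smallest adjusted p was 1 without a block and 0.101 with the replicate number as a block. At an unadjusted p under 0.05 there were 3, all higher in dKO, namely Pparg, Nr1h3 and Cish. Over all kept genes 3.34% reached that unadjusted p, 1.74% higher and 1.61% lower. Of the 52, 8 were higher and 6 lower without overlap, beside 13.3% and 14% of all kept genes. Counts for single lists below cover few genes each and were not tested against those shares. Their median difference was 0.05, and that of all kept genes was 0.01.

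No other aquaporin was measured above the floor. The remaining 10 members of the family, Aqp1, Aqp2, Aqp4, Aqp5, Aqp6, Aqp7, Aqp8, Aqp11, Aqp12 and Mip, had 20 probes with intensities between −1.1 and 14.4. Aqp7, another glycerol channel, was among them. Of the aquaporin genes listed, Aqp9 and Aqp3 alone had a kept probe in either genotype.

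Of the genes that supply glycerol phosphate, Gpd2, the mitochondrial glycerol 3-phosphate dehydrogenase, was the only one kept. It was at 79.4 and 81.1 in dKO 1 and 2 and at 87.3 and 118 in WT 1 and 2, without overlap, a log2 difference of −0.33. Gk5, Gpd1 and Gpd1l stayed below the floor, and the glycerol kinase gene Gk was not analysed here.

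Among 13 other genes of glycerolipid synthesis 7 were tested and 2 were lower without overlap, beside 14% of all kept genes. Lpin1, the lipin that makes diacylglycerol for the DGAT enzymes, was at 30.4 and 32.1 in dKO 1 and 2 and at 47.9 and 54.1 in WT 1 and 2. Both dKO arrays were below both WT arrays, by −0.68 within number 1 and −0.73 within number 2 on the log2 scale, with a difference of −0.75 at its other kept probe. In limma the adjusted p of Lpin1 was 1, and 0.348 with the replicate number as a block. Its unadjusted p in limma without the block was 0.0588, and 0.0387 at its other kept probe. Agpat1, which adds the middle fatty acid, differed by −0.45, of which −0.03 was within number 1. Agpat4, of the same family, differed by 0.80 with overlap, as its values of 31.9 and 131 in dKO and 19.5 and 71.1 in WT varied more between numbers than between genotypes. Gpat4, the acyltransferase of the endoplasmic reticulum, differed by 0.16 with overlap and had an intensity of 405 or more on every array. The monoacylglycerol enzymes Mogat1 and Mogat2 and the acyltransferase Gpat3 were below the floor.

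Of 13 genes for lipid droplet proteins 5 were tested, with 2 higher in dKO without overlap, beside 13.3% of all kept genes. The median log2 difference of the list was 0.42 (0.28 in number 1 and 0.75 in number 2). Without dKO 2 that median was 0.13. Plin3, a droplet coat protein, was at 73.2 and 88.1 in dKO 1 and 2 and at 54.9 and 51.4 in WT 1 and 2, a difference of 0.59 (adjusted p = 1 in limma, 0.422 with the replicate block). Bscl2, which encodes seipin of the droplet neck, differed by 0.19 without overlap. Hilpda, an inhibitor of droplet lipolysis, differed by 0.58 with overlap, and by 0.13 at its other kept probe. Plin2, the common droplet coat protein, differed by 0.42 with overlap, which is also the list median. The Plin2 probe was below the floor on both number 1 arrays, and in number 2 was at 32.7 in dKO and 17.8 in WT. Plin1, Plin4, Plin5 and the Cide genes stayed below the floor.

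Of 7 genes of triglyceride breakdown 3 were tested, and Pnpla2, the first lipase of the droplet, was higher in dKO without overlap by 0.08 on the log2 scale. Its activator Abhd5 differed by 0.12 and the lysosomal lipase gene Lipa by 0.40, and both overlapped. The other kept Lipa probe was higher in dKO without overlap, by 0.57. The fatty acid oxidation list had 12 of 13 genes tested with a median of 0.07. Hadhb and Cpt2, of the mitochondrial pathway, were higher without overlap by 0.43 and 0.26, Acadm differed by 0.31 and Hadha by −0.36, both with overlap, and none was called. Cpt1a, the entry step of that pathway, was below the floor.

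Genes of fatty acid uptake and activation had a median of −0.00 over 5 tested of 15. Acsl4 was at 0.38, Acsl3 at 0.21, Slc27a4 at −0.21 and Slc27a6 at −0.13, all overlapping. Acsl3 exceeded the floor only in dKO 2, at 22.9, and Slc27a6 only in WT 2, at 20.3. The genes of fatty acid synthesis had a median of −0.06 over 4 tested of 7. Acly, which makes cytosolic acetyl-CoA, differed by −0.16 and Elovl6 by −0.21, both with overlap. Scd1, a desaturase, exceeded the floor only in dKO 2, at 38.5, and Scd2 only in dKO 2, at 17.7. The scavenger receptor gene Cd36 and the fatty acid binding genes Fabp3, Fabp4 and Fabp5 were below the floor on every array.

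The regulators of lipid storage held the pathway gene farthest from 0. Pparg, the nuclear receptor that drives fat storage genes, was at 46.6 in dKO 1 and 135 in dKO 2 and below the floor at 6.1 and 11.8 in WT 1 and 2. As a mean over both dKO arrays it was at least 4.91-fold higher in dKO, computed against the floor. The log2 difference was 1.67 within number 1 and 2.92 within number 2. The adjusted p of Pparg in limma was 1, or 0.101 with the block (0.0439 with the block on the authors' values as deposited). Both WT values were set to the floor, so these p-values rest on a WT group without spread (log2 SD 0), and nothing is read from them. The probe was kept through dKO alone. The other Pparg probes, ILMN_1221594 and ILMN_1221893, stayed below the floor on all 4 arrays, so the difference rests on 1 probe. Nr1h3, a nuclear receptor for oxysterols, was at 31.98 and 32.6 in dKO and at 20.6 and 15.4 in WT, a difference of 0.79 without overlap (adjusted p = 1 in limma). Its WT 2 value was below the floor. The other Nr1h3 probe, ILMN_2668472, stayed below the floor on all 4 arrays, so this difference too rests on 1 probe. Srebf2, a regulator of sterol genes, was lower without overlap by −0.57, and its other kept probe differed by −0.07 with overlap. Srebf1, of fatty acid genes, exceeded the floor only in WT 1, at 20.01. The list as a whole had 2 genes higher and 1 lower without overlap of 6 tested, beside 13.3% and 14% of all kept genes.

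**Figure D3:**
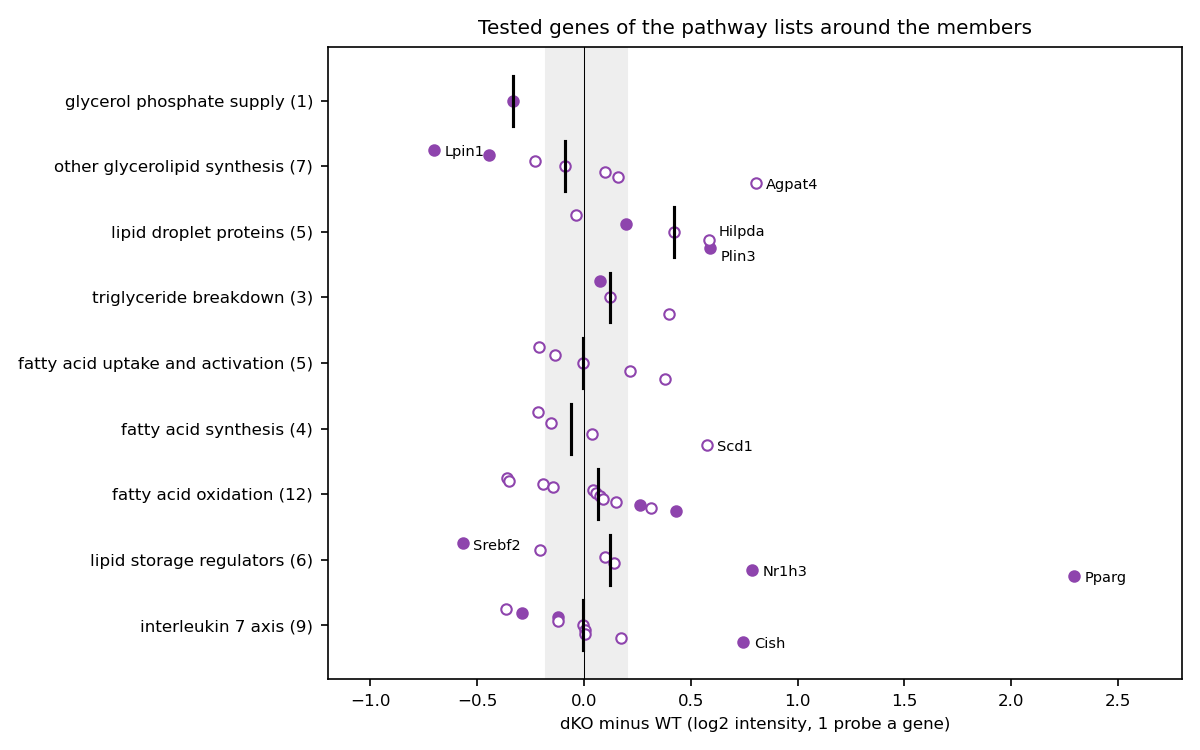
Log2 difference, dKO minus WT (x axis), of the 52 tested genes in 9 lists (y axis, number of genes tested in brackets). Filled circles mark genes whose groups do not overlap, open circles those that overlap, black bars list medians, and the grey band the quartiles of all 8285 kept genes (−0.18 and 0.20). Pparg at 2.30, Agpat4 at 0.80, Nr1h3 at 0.79, Cish at 0.75 and Lpin1 at −0.70 lie farthest from 0.

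The interleukin 7 axis, which induces Aqp9 in mouse memory CD8 T cells, had 9 of 12 genes tested and a median difference of −0.01. The receptor gene Il7r was at 1323 and 1080 in dKO 1 and 2 and at 1270 and 880 in WT 1 and 2. The groups overlapped, and its 4 kept probes all lay between 0.17 and 0.32. Cish, an inhibitor induced by STAT5, was at 1061 and 1967 in dKO and at 668 and 1123 in WT. Within each number dKO exceeded WT, by 0.70 and 0.79, and the groups overlapped in deposited intensity but not in the normalized values (adjusted p = 1 in limma, 0.148 with the replicate block). Jak3 and Jak1, the kinases of the receptor, differed by −0.29 and −0.12 without overlap. Their other kept probes differed by −0.03 for Jak3 and by −0.09 and 0.08 for Jak1. Bcl2, a survival gene downstream, differed by −0.36 with overlap, and its other kept probes lay between −0.33 and 0.21. Stat5a differed by −0.01 and Klf2 by 0.01.

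Other cell types can carry Aqp9, which is abundant in neutrophils and also found in macrophages. Of 11 neutrophil markers with a probe 7 were below the floor on all arrays, among them Csf3r, Cxcr2, Elane and Mpo, and the summed intensity of the list was 81.4 and 353 in dKO 1 and 2 and 138 and 118 in WT 1 and 2. The groups overlapped, and the high sum in dKO 2 came mostly from S100a8 (149) and S100a9 (78.9). Mmp9, a neutrophil protease, was lower in dKO without overlap, as Aqp9 was, at 32.1 and 39.7 in dKO and at 64.3 and 52.7 in WT, a log2 difference of −0.72. Macrophage and dendritic cell markers, 10 of 12 above the floor on some array, summed to 501 and 1227 in dKO and to 641 and 608 in WT, and their groups overlapped. Of that list Adgre1, C1qb, C1qc and Csf1r were higher in dKO without overlap. Clec9a, a dendritic cell receptor, was lower without overlap, at 10.8 and 10.5 in dKO and at 22.9 and 28.0 in WT. Over all kept genes 13.3% were higher and 14% lower without overlap. Mpeg1 differed by −0.69 with overlap. The part of neutrophils, macrophages and dendritic cells in the Aqp9 difference was not tested.

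The CD8 T cell and NK cell marker list was lower in dKO, as Aqp9 was. Their summed intensity was 1777 and 2101 in dKO 1 and 2 and 3562 and 4187 in WT 1 and 2. Of 12 genes 9 were above the floor and 7 lower in dKO without overlap, beside 14% of all kept genes. The list was chosen with earlier results of these data known, so nothing is read from that count. Klre1, Klrb1c and Klra3 were below the floor on both dKO arrays and exceeded it in WT alone, so they could only come out lower. Both Cd8a probes and Ncr1 were below the floor on all arrays, whereas the brightest Cd8b1 probe by mean lay between 512 and 736, with overlap. The other Cd8b1 probes were at 182 and 715 in dKO 1 and 2 against 285 and 922 in WT 1 and 2, and at 15.1 and 35.8 against 27.8 and 47.2. Every Cd8b1 probe was lower in dKO within each replicate number. The gamma delta segment Trgv4 was at 1.8 and 30.7 in dKO and at 157 and 161 in WT, while Sox13, Zbtb16 and Il23r were below the floor. Erythroid transcripts moved the other way, with a summed intensity of 819 and 4224 in dKO and 65.4 and 142 in WT. The part of these cells in the Aqp9 and Aqp3 differences was not tested.

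B cell markers, 2 of 4 above the floor and Ms4a1 and Pax5 below it, summed to 74.5 and 329 in dKO and to 148 and 167 in WT, and overlapped. Of the genes that mark naive T cells, Ccr7 was at 31.3 and 63.0 in dKO 1 and 2 and at 60.4 and 97.0 in WT 1 and 2, lower in dKO without overlap after normalization. The summed level of both measured naive genes was 86.5 and 98.3 in dKO and 138 and 144 in WT.

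The 5 probes whose log2 values over the 4 arrays lay nearest to those of Aqp9, each centred on its own mean, belonged to Ipcef1, Gbp2b, Klre1, Xcl1 and 2610035D17Rik, at Euclidean distances of 1.08 to 1.32. Over 4 arrays such a likeness says little more than that each was lower on both dKO arrays. Xcl1, a chemokine, was at 49.6 and 70.0 in dKO 1 and 2 and at 277 and 465 in WT 1 and 2, a log2 difference of −2.60. Klre1, a lectin receptor of NK cells, was below the floor at 15.7 and 12.9 in dKO and at 83.6 and 33.1 in WT. Gbp2b, an interferon-induced guanylate-binding protein, was likewise below the floor at 14.1 and 11.7 in dKO and at 64.7 and 63.2 in WT. Ipcef1 was at 29.7 and 6.8 in dKO and at 78.1 and 97.5 in WT at this probe, a difference of −1.95, and its other kept probes differed by −0.85 and −1.25.

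**Figure D4:**
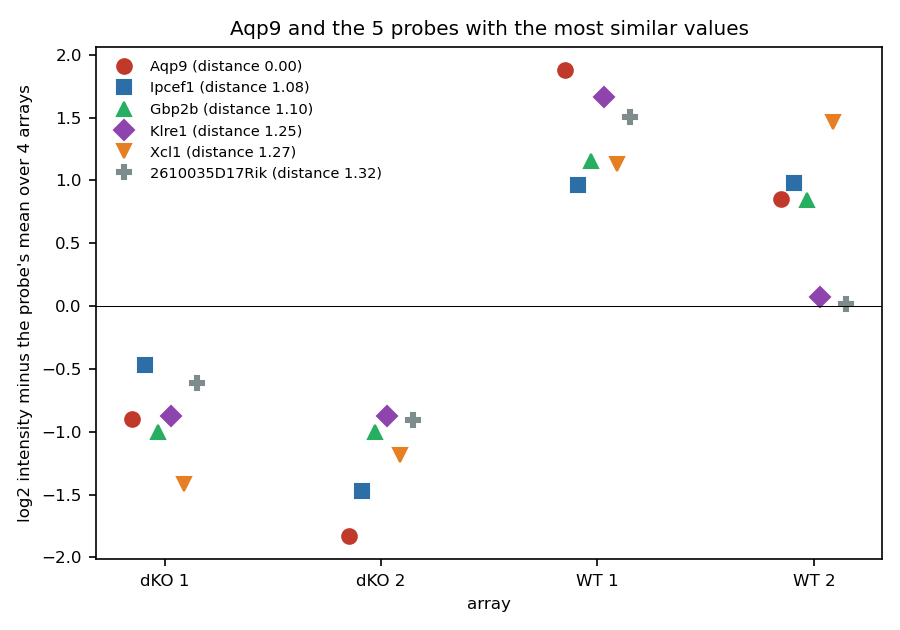
Log2 intensity minus the probe's own mean over the 4 arrays (y axis) on each array (x axis) for the brighter Aqp9 probe and the 5 named probes nearest to it, with the Euclidean distance to Aqp9 in brackets. All 6 probes lie below 0 on both dKO arrays and above 0 on both WT arrays, and Aqp9 is the lowest of them on dKO 2 and the highest on WT 1.

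The differences of the 4 kept member probes were computed again under other settings of the floor, the normalization and the arrays used. Aqp9 lay between −3.22 and −2.21 and Aqp3 between 0.42 and 0.65 in each of the 13 other settings. Of these, the replicate block cannot change a difference, and a floor of 8 left Aqp9 and Aqp3 at their reported values. Dgat1 changed sign without dKO 1 (0.01) or WT 2 (0.06), and Dgat2 without dKO 2 (−0.24). With a floor of 32 in place of 16 the Dgat1 difference was −0.04 and the Dgat2 difference 0.26.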

How the data were processed

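Total RNA of 4 samples was measured on Illumina bead arrays, and groups and replicate numbers were taken from the sample titles. The authors deposited 1 linear intensity per probe and array, some below 0. The sources used here give neither their software nor the background subtracted, on which ratios at low intensity depend. Sorted intensities of dKO and WT with the same replicate number differed by at most 0.0846 (number 1) and 0.0793 (number 2), so each such pair had been normalized jointly. A second table was not used, because its 8 columns match no sample's labels. Depth has no counterpart on arrays, where the number of arrays limits the precision.

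Values under 16 were set to 16, then log2 values were quantile normalized across all 4 arrays. Each probe above the floor on at least 1 array entered a two-sided limma test (limma 3.58.1, R 4.3.3, lmFit then trended eBayes), and p-values were adjusted by Benjamini-Hochberg over the 14673 kept probes, on 2 residual degrees of freedom (1 with the replicate block). Probes were fitted separately. In GEO's platform annotation 34885 probes have a single symbol, 18 have several and 10378 have none, and 34807 were matched by Entrez ID to RefSeq (GRCm38.p6). The fit was tested on simulated arrays. Alternatives in floor, normalization, filter, block and arrays used are given in the closing section.

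The members and lists were chosen with earlier results of these data known. Named were all member probes, up to 4 genes of each list by unadjusted p, Il7r, markers, and the 5 probes most like Aqp9. Genes that fall outside this rule were chosen after their values were seen. Of the list genes, 23 had several kept probes, and 9 of those had probes of opposite sign. RefSeq upstream windows matched 3 of the 5 members.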

Additional observations from a re-analysis of the deposited data

How the results depend on the processing

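Limma called 0 probes in either direction without a block, also with the authors' values unchanged, medians equalized, quantile normalization before the floor, a floor of 8 or 32, an untrended eBayes, 1 probe per gene, only probes measured on all 4 arrays, and each array dropped in turn (0 to 0). There were 3 calls higher and 2 lower with log2(signal + 16). The replicate block called 23 higher and 11 lower, and on the authors' values 36 and 34, all 34 calls of the first among them. The deviations of the arrays with the same number correlated at 0.519, and the labels name no pairing. Of the pathway genes 0 were called in every setting, except 1 higher, Pparg (adjusted p = 0.0439 in limma), with the replicate block on the authors' values. Both WT values of Pparg were set to the floor, so that p-value rests on a WT group without spread. The setting without a filter on dim probes could not be fitted, because most residual variances are then exactly 0. The Aqp3 difference was 0.42 with log2(signal + 16), less than the reported value by more than the spread between replicates. Leaving out 1 array, Aqp9 ranged from −3.22 to −2.23, Aqp3 from 0.49 to 0.65, Dgat1 from −0.42 to 0.06 and Dgat2 from −0.24 to 1.30. These fits take the spread of a lone array from the other group. Of 144 list medians under other settings, 12 had another sign, and the cause was not tested. Among the 144 are medians with the replicate block and with 1 probe per gene, which equal the reported medians by construction. The block on the authors' values likewise repeats the medians of those values. Values near the floor limit Dgat1, Dgat2 and Gpam.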
